A study of Mus musculus with 5 samples.

Results

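Cytl1, Ppp1r1b, Myoc, Clu, Dmkn, Nt5e and Angptl7 were followed through the fibroblast stroma of the mouse temporomandibular joint (TMJ) disc, the plate of fibrocartilage that separates the jaw condyle from the skull. These 7 of the 27998 genes in the deposited count matrices were selected on their stromal UMI counts, as genes that lead the adult stroma, and found by symbol. Their stromal levels over age are therefore given as a description. Each library is 1 scRNA-Seq sample of TMJ disc cells from C57BL/6 mice with the genotype WT: discs at 3 d (newborn), 3 w (juvenile), 16 w (adult) and 78 w (aged), and injured discs of mice aged 7 weeks. The injured discs had been punctured with a needle at 5 weeks and were collected 2 weeks later. The study's methods describe this surgery for mice with a Myh11-CreER allele and a tdTomato reporter, whereas the label of the library gives WT. Pups of both sexes went into 1 suspension at 3 d, males were used at 3 w, 16 w and 78 w, and the sex of the injured mice is not given in the sources used here. There was 1 library per condition and no uninjured library at 7 weeks, so that injury, age, sex and library cannot be told apart in that sample, and no difference between libraries has a replicate check.

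The 7 genes encode proteins with different known roles. Cytl1 (cytokine-like 1) is a small secreted protein known from cartilage. Ppp1r1b encodes a cytoplasmic inhibitor of protein phosphatase 1 that is switched on by cAMP-dependent protein kinase and is best known from dopamine-responsive neurons. Myoc encodes myocilin, a secreted glycoprotein with an olfactomedin domain, and Angptl7 a secreted angiopoietin-like protein, and both are known from the trabecular meshwork of the eye. Clu encodes clusterin, a secreted chaperone that also binds complement. Dmkn encodes dermokine, a secreted protein best known from epidermis. Nt5e encodes the surface enzyme that turns AMP into adenosine. Chad, to which they were compared cell by cell, encodes chondroadherin, a leucine-rich matrix protein of cartilage.

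The 7 genes lie on 7 chromosomes (GRCm38, the build named mm10 in the submitters' notes, with GENCODE M21 genes). Cytl1 (ENSMUSG00000062329) spans chr5:37735519-37739820, Ppp1r1b (ENSMUSG00000061718) chr11:98348404-98357796, Myoc (ENSMUSG00000026697) chr1:162639155-162649693, Clu (ENSMUSG00000022037) chr14:65968483-65981547, Dmkn (ENSMUSG00000060962) chr7:30763756-30781063 and Nt5e (ENSMUSG00000032420) chr9:88327197-88372092, all on the plus strand. Angptl7 (ENSMUSG00000028989) spans chr4:148495183-148500460 on the minus strand, inside the span of Mtor, which runs the other way. The antisense gene Myocos overlaps Myoc, and the antisense gene 1700003D09Rik, which is not among the counted genes, overlaps Ppp1r1b. Whether UMIs of these neighbours entered the counts of the members was not tested.

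RefSeq promoter windows were found for 5 of the 7 genes and for Chad. The 200 bases before the start site are shown (GRCm38.p6, 5′ to 3′ on the strand of the gene) for 4 members with different ages of onset and for Chad, because these genes were low at 3 d and high later. Capitals mark the TATA box (TATAAA), the GC box (GGGCGG) and the AP-1 site (TGANTCA), each searched on both strands.
Cytl1, chr5:37735319-37735518, plus strand: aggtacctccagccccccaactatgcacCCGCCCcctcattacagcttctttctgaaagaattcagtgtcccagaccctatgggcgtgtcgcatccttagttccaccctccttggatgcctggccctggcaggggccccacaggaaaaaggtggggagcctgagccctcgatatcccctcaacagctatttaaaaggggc
Myoc, chr1:162638950-162639149, plus strand: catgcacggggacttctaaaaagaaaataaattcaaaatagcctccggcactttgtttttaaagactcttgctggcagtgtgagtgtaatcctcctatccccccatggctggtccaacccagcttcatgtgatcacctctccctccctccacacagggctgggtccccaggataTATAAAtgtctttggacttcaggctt
Angptl7, chr4:148500463-148500662, minus strand: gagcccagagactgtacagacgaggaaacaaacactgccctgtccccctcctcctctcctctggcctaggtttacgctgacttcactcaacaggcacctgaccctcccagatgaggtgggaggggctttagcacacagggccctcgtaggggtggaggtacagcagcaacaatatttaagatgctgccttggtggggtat
Dmkn, chr7:30763556-30763755, plus strand: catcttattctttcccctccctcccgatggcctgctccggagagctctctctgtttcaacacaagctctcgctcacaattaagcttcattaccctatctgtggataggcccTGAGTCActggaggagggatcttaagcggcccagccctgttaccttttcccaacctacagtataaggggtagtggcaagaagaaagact
Chad, chr11:94564847-94565046, plus strand: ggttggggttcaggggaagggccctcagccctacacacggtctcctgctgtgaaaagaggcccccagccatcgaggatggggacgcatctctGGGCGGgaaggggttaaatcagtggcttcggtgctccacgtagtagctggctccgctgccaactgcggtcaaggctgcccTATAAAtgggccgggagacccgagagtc
No one of these 3 motifs was present in all of them. Myoc and Chad each hold a TATA box, at bases -26 to -21 and -28 to -23 from the start site, a motif found in 13.6% of 32851 RefSeq windows of 300 bases. Cytl1 and Chad each hold a GC box, from -172 to -167 and from -108 to -103, as do 35.7% of the windows. Dmkn holds the AP-1 letters at -89 to -83 from the first of its 3 RefSeq starts, and in the windows of the others too, letters that are present in 7.81% of windows. None of the 3 motifs lies in the window of Angptl7. Nt5e, whose RefSeq start lies inside the GENCODE span of the gene and whose window is therefore not shown, holds 4 GC boxes in overlapping pairs, the nearer pair at -24 to -19 and -19 to -14, in a window of 71% G and C. Other motifs searched were CCAAT (in 37.4% of windows), the SOX core ACAAT (31.0%), the RUNX core TGTGGT (16.8%), the E-box CANNTG (72.3%) and the CRE TGACGTCA (1.79%). The RUNX core and the CRE were found in no window of these genes. A match of letters is a description of the sequence and shows no binding.

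The libraries held 8467 to 15169 barcodes and 31585993 to 125427849 UMIs (unique molecular identifiers, which count each captured transcript once). Of 51688 cells kept, 41649 (80.6%) fell in the 3 clusters that carried the stromal collagen and proteoglycan markers, with 10880 stromal cells at 3 d, 7903 at 3 w, 7659 at 16 w, 8320 at 78 w and 6887 in the injured library. Median UMIs per stromal cell were 8388, 13246, 9567, 9805 and 3567 in that order, so that the injured library was the shallowest per cell. Any pair of libraries shared 19 to 39 barcodes, at most 0.416% of either. Within the stroma, 7 endothelial markers summed to between 10.2 and 31.3 CPM (UMIs of a gene per 1000000 UMIs) in every library, and 8 macrophage markers to 83.1 CPM in the injured library against 11.1 to 23.1 in the others. The 5 erythroid markers summed to 756 CPM at 3 d, 157 CPM in the injured library and 2.88 to 25.1 CPM in the rest. The 7 markers of synovial lining fibroblasts summed to 169, 2940, 7939 and 12024 CPM over the normal stages and 3638 CPM in the injured library, most of it Prg4. The part of these cells in the results was not tested. Class names rest on markers and mean cells like that type.

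In newborn stroma all 7 genes were low. From there they separated in the age at which they came on (the plot of stromal CPM by library). Onset was taken as the first normal stage with at least 50% of the highest stromal CPM over the 4 normal stages, and CPM refers to UMIs summed over the stromal cells of a library. UMIs count transcripts at their 3′ end, so levels of different genes were compared without scaling by length. By that measure 5 members came on at 16 w (Cytl1, Ppp1r1b, Clu, Dmkn and Nt5e) and 2 at 3 w (Myoc and Angptl7). The highest level lay at 16 w or 78 w for 6 of the 7, and at 3 w for Angptl7. The genes were chosen on these same stromal levels, so the calls do not test the name of adult-onset genes. An onset call at 16 w does not mean absence before. At 3 w these 5 members already stood 16.6-fold (Nt5e) to 1975-fold (Ppp1r1b, against a single newborn UMI) above 3 d. For each of the 5 this ratio was larger than that of 16 w over 3 w. The level of Angptl7 was past its peak by 16 w.

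**Figure D1:**
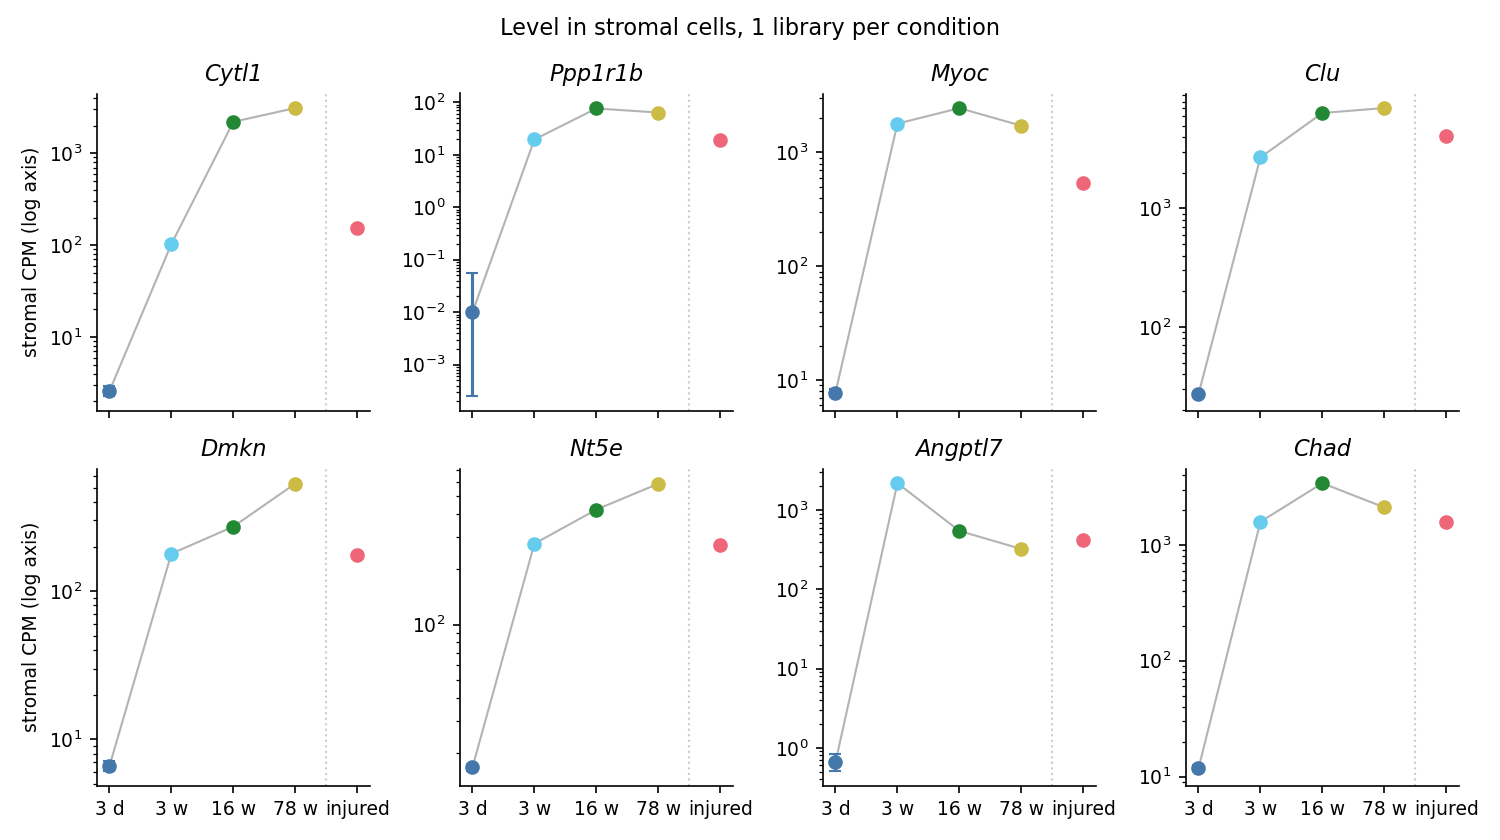
Stromal level (CPM, log axis with its own range in each panel) of the 7 genes and Chad in each library, with exact 95% Poisson intervals, which are mostly smaller than the points. Libraries are equally spaced, not to scale in time, and Cytl1 was higher at each later normal stage, from 2.59 to 3102 CPM, whereas Angptl7 was highest at 3 w, at 2200 CPM.

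Cytl1 showed the widest step of the 7 after 3 w. Its stromal level was 2.59 CPM at 3 d, 103 CPM at 3 w, 2198 CPM at 16 w, 3102 CPM at 78 w and 154 CPM in the injured library. The normal libraries were thus ordered by age, with the gap between 3 w and 16 w the wide one among the later stages: 16 w was 21.4-fold higher than 3 w (95% interval 21.0 to 21.8, counting error only), and 78 w a further 1.41-fold higher than 16 w (1.40 to 1.42). That 16 w over 3 w ratio ranked 6 of 12865 genes. The earlier ratio of Cytl1, 3 w over 3 d, was larger still, at 39.8 (35.2 to 45.1). Among all stromal transcripts Cytl1 held place 10990 at 3 d, place 1385 at 3 w, 87 at 16 w and 50 at 78 w.

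Ppp1r1b was almost absent from newborn stroma, with 1 UMI among 100937109, or 0.0099 CPM. It was at 19.6 CPM at 3 w, 76.2 CPM at 16 w, 63.8 CPM at 78 w and 19.5 CPM in the injured library. Adult and aged stroma were thus the high pair, and the injured library matched the juvenile one to within counting error, with a ratio of 0.997 (0.906 to 1.10). The 16 w level was 3.90-fold higher than at 3 w (3.71 to 4.09). Against the single newborn UMI, the ratio at 16 w was 7695, with a counting interval from 1381 to 303991. Even at its highest this gene ranked only 1710 of 19011 detected genes, below the other 6 members.

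Clu was the most abundant of the 7. Its level was 27.0 CPM at 3 d, 2701 CPM at 3 w, 6401 CPM at 16 w, 7046 CPM at 78 w and 4098 CPM in the injured library. At 16 w and 78 w it stood at places 8 and 7 among all stromal transcripts. At 3 w it was 99.9-fold above 3 d (96.2 to 104), and 16 w was 2.37-fold above 3 w (2.36 to 2.38).

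Dmkn and Nt5e were higher at each later normal stage, at lower levels than Clu. Dmkn was at 6.57, 179, 272 and 532 CPM from 3 d to 78 w and at 175 CPM in the injured library. Nt5e was at 16.7, 276, 424 and 587 CPM over the same stages and at 272 CPM in the injured library. Both were highest in the aged library, where Dmkn was 1.95-fold above 16 w (1.92 to 1.98) and Nt5e 1.38-fold (1.37 to 1.40). Their onset call lay close to the line: Nt5e had reached 47.1% of its highest level at 3 w, just short of onset, and Dmkn 51.2% of its own at 16 w, just past it.

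Myoc and Angptl7, the members with an onset call at 3 w, parted after that stage. Myoc was at 7.78 CPM at 3 d, 1791 CPM at 3 w, 2451 CPM at 16 w, 1718 CPM at 78 w and 540 CPM in the injured library. It thus lay between 1718 and 2451 CPM in the 3 later normal libraries and below them in the injured one. Angptl7 was at 0.654 CPM at 3 d (66 UMIs), 2200 CPM at 3 w, 548 CPM at 16 w, 325 CPM at 78 w and 422 CPM in the injured library. Its 3 w level was 3364-fold above 3 d (2644 to 4350), the first-ranked ratio of 13508 genes, and 16 w was at 0.249 of 3 w (0.247 to 0.252).

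Counted over the set, 7 of 7 members were at least 2-fold higher at 3 w than at 3 d, where 16.1% of 13508 tested genes were. The same 7 of 7 held for 16 w over 3 d (15.8% of all genes) and 78 w over 3 d (14.1%). Between 3 w and 16 w, 3 of 7 were at least 2-fold higher (Cytl1, Ppp1r1b and Clu), against 5.53% of all genes, and 1 (Angptl7) was at least 2-fold lower. Between 16 w and 78 w none of the 7 was 2-fold higher, against 2.12% of all genes, with Dmkn the nearest. These contrasts share libraries and were the basis on which the genes were chosen, so nothing is read from the counts. The median ratio over all tested genes was 0.968 for 3 w over 3 d, 0.940 for 16 w over 3 w and 0.957 for 78 w over 16 w, and the medians of the 7 were 99.9, 1.53 and 1.10. Scaling by TMM factors in place of total UMIs moved the median of all genes by at most 0.21 on the log2 scale, for 78 w over 3 d, and Dmkn then passed 2-fold between 16 w and 78 w.

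The 3 d ratios of Cytl1 and Dmkn depended most on which cells were counted. With each of the 3 stromal clusters given the same weight, the 16 w over 3 d ratio of Cytl1 was 451 in place of 850, and 421 with each cell given the same weight. That of Dmkn was 20.5 in place of 41.5 with the synovial lining cluster counted as stroma and 19.8 with equal weight per cluster. Nt5e was at 15.0 in place of 25.4 with equal weight per cluster. None of these ratios changed direction, and the number of members with onset at 16 w stayed at 5.

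The members stood at different levels in the injured library relative to the normal ones. This library was also the shallowest and held the most macrophage transcripts in its stroma (83.1 CPM), and their part was not tested. Set beside the uninjured adult library, Cytl1 was at 0.0701 of the 16 w level (0.0680 to 0.0722), rank 22 from the bottom of 12097 genes, and at 154 CPM against 103 CPM at 3 w (ratio interval 1.45 to 1.55). Myoc was at 0.220 of 16 w and 0.302 of 3 w, lower than in either neighbouring stage. Angptl7 was at 0.770 of 16 w and 0.192 of 3 w. Clu, Dmkn and Nt5e were at 0.640, 0.643 and 0.642 of 16 w and at 1.52, 0.980 and 0.984 of 3 w. At least 2-fold lower than at 16 w were 3 of the 7 (Cytl1, Myoc and Ppp1r1b), where 13.7% of all genes were, and at least 2-fold lower than at 3 w were 2 of 7 (Myoc and Angptl7), against 16.4% of all genes. The members were chosen as genes high in adult stroma, which favours low ratios to 16 w. Nothing is therefore read from these counts or from the rank of Cytl1. The median ratio of all genes was 0.833 over 16 w and 0.807 over 3 w. By age the injured mice lie between the 3 w and 16 w mice. For Myoc alone of the 7 was the injured level below both the 3 w and the 16 w level by 2-fold or more. Ppp1r1b, Dmkn and Nt5e had intervals against 3 w that include a ratio of 1, and stood above 1 with TMM scaling, at 1.13, 1.11 and 1.12.

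Within the stroma, the genes were not evenly shared among the 3 clusters. Leading genes were taken over the median of all other clusters, stromal or not. They included Spp1, Angptl7, Myoc and Chad in cluster 1, and Ibsp, Lcn2, Col2a1, Chad, Dmkn, Angptl7 and Cytl1 in cluster 2. Cluster 3 was led by Pi16, Clec3b and Mfap4, genes known from adventitial fibroblasts. Chad, a leading gene of clusters 1 and 2, was 1.66 to 1.95 times as high in cluster 2 as in cluster 1 after 3 d. The members, Chad and Sfrp2 were left out of the features used for clustering, but genes that vary with them were not, so the cluster levels are a description. In all 4 libraries after 3 d, Cytl1, Ppp1r1b, Clu, Dmkn and Nt5e were highest in cluster 2 and lowest in cluster 3. Cytl1 in cluster 2 was 12.6 to 18.1 times its level in cluster 3, and Ppp1r1b 9.09 to 21.3 times. At 16 w Cytl1 stood at 1256 CPM in cluster 1, 3787 CPM in cluster 2 and 271 CPM in cluster 3, and Ppp1r1b at 65.7, 102 and 11.2 CPM. For these 5 genes the cluster 3 level lay below that in endothelial cells in each of the 4 libraries, by the point values (at 16 w, 271 against 423 CPM for Cytl1 and 11.2 against 19.8 CPM for Ppp1r1b). The margins differed in size and were not all wide, and intervals were not compared. Whether the cluster 3 level was background or low expression was not tested.

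Dmkn was the member most gathered in cluster 2, which held 33.7% of stromal cells at 16 w and 77.9% of the stromal Dmkn UMIs, against 69.2% of those of Cytl1 and 53.9% of those of Ppp1r1b. Myoc was the most even, and the member that stood above the endothelial level in cluster 3 in all 4 later libraries. Its level in cluster 3 was 1430 CPM at 16 w beside 2455 CPM in cluster 1 and 2638 CPM in cluster 2 (endothelial cells 487 CPM), and cluster 2 was only 1.05 to 2.51 times cluster 3 over the 4 later libraries. Angptl7 was highest in cluster 2 at 3 w and in cluster 1 in the 3 other later libraries, and in cluster 3 it exceeded the endothelial level at 78 w alone. At 3 d cluster 3 held 40.7% of the stromal cells, against 8.71% to 12.9% later, so the newborn and later stromal sums differ in make-up as well as in age.

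**Figure D2:**
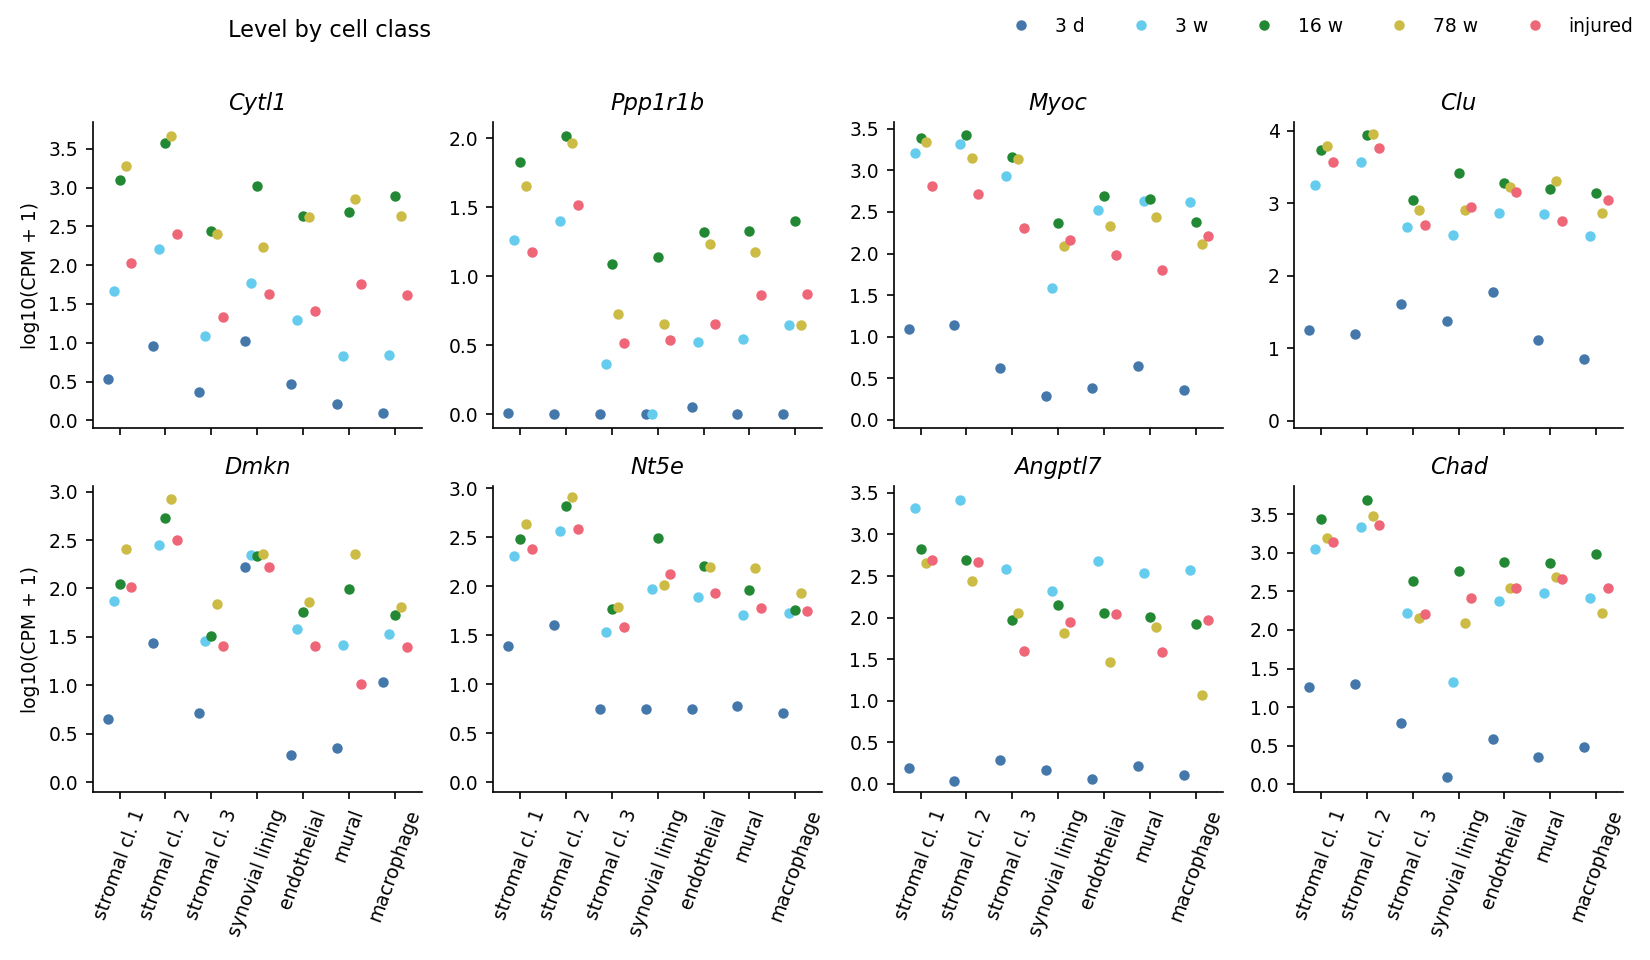
Level of each gene, as log10(CPM + 1), in the 3 stromal clusters, the synovial lining fibroblasts, endothelial cells, mural cells and macrophages (with other leukocytes), with 1 point per library. Cytl1, Ppp1r1b, Clu, Dmkn and Nt5e peak in stromal cluster 2 after 3 d, and Dmkn stands at 167 CPM in synovial lining cells at 3 d, the highest of the 7 there.

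Outside the stroma the members were mostly at the level of other stromal transcripts. In endothelial cells, mural cells and macrophages of the 4 later libraries, Cytl1 stood at 0.0562 to 0.367 of its stromal CPM, and Ppp1r1b at 0.0534 to 0.330. For 5 stromal matrix genes (Dcn, Comp, Lum, Fmod and Col1a2) the same ratio lay between 0.0950 and 0.463, with a median of 0.209. At 16 w Cytl1 in endothelial cells (423 CPM) was at 0.193 of its stromal level, beside 0.194 to 0.257 for the 5 genes there. In macrophages at 16 w Cytl1 was at 0.357, above the 0.108 to 0.227 of the 5 genes. Whether such UMIs were background or expression by these cells was not tested. After each cell was thinned to 1000 UMIs, the share of cells with a Cytl1 UMI at 16 w was 25.1% in stroma and 7.58% in endothelium, and 51.5% in stroma before thinning. For Ppp1r1b the thinned shares were 5.87% and 0.542%, with 35.0% in stroma before thinning. Median depths were 9567 UMIs in stromal and 5422 UMIs in endothelial cells.

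Dmkn, Clu and Cytl1 were higher outside the stroma at 3 d. Synovial lining fibroblasts, which are marked by Prg4 and Clic5 and line the joint cavity, held Dmkn at 167 CPM at 3 d, 25.5-fold the stromal level, and at 222, 216, 226 and 165 CPM at 3 w, 16 w, 78 w and in the injured library. In these cells Dmkn was thus nearly level over age, unlike in the stroma, and by 78 w the lining stood at 0.425 of the stroma. Clu was at 58.6 CPM in endothelial cells at 3 d, 2.17-fold above the newborn stroma, and below the stroma in every later library. Cytl1 was at 9.62 CPM in lining cells at 3 d, 3.72-fold above the stroma. It was at 1045 CPM there at 16 w (104 cells) and at 173 CPM at 78 w (333 cells). In lining cells Chad and Fmod stood at 0.169 and 0.443 of the stroma at 16 w, and at 0.0577 and 0.194 at 78 w. The part of stromal transcripts in the Cytl1 values of the lining was not tested.

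Cytl1 and Myoc had like levels at 16 w but were spread over cells in different ways. Each stromal cell was thinned to 1000 UMIs, which left out 7 to 338 shallower cells per library. At 16 w Cytl1 was found in 1919 of 7644 cells (25.1%), with a mean of 6.43 UMIs per 1000 in the cells that held it, while Myoc was found in 56.7% of cells with a mean of 3.89. The 10% of stromal cells richest in Cytl1 held 83.8% of its UMIs, and the 10% richest in Myoc held 46.4% of those of Myoc. In 405 cells (5.30%) at least 10 of 1000 UMIs were Cytl1, and the highest had 75.

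At 78 w the Cytl1 cells were more numerous, at 38.3% of cells, but hardly richer, with a mean of 6.87 UMIs in cells that held it, and 8.66% of cells had 10 or more. At 3 w 3.57% of cells held Cytl1 with a mean of 2.64 UMIs, so that both the share of cells and the level per cell were higher at 16 w. The injured library was nearer to the juvenile one: 5.68% of cells held Cytl1, with a mean of 2.94 UMIs, and 17 cells had 10 or more. Before thinning the shares were 12.4% at 3 w, 51.5% at 16 w, 65.9% at 78 w and 11.8% in the injured library.

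The other members fell between these patterns. Clu was found in 74.4% of thinned cells at 16 w and 78.3% at 78 w, with means of 7.56 and 8.52 UMIs. Nt5e was in 27.1% of cells at 16 w, a share close to that of Cytl1, with a mean of only 1.38 UMIs and no cell of 10 or more. Ppp1r1b was in 5.87% of cells at 16 w and 5.26% at 78 w with about 1 UMI each (1.10 and 1.08), near the lowest level that can be seen at this depth. Dmkn was in 8.12% and 15.5% of cells at 16 w and 78 w with means of 2.73 and 3.23. Angptl7 was in 46.8% of cells with a mean of 4.42 UMIs at 3 w, and in 12.7% of cells with a mean of 2.52 at 78 w.

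**Figure D3:**
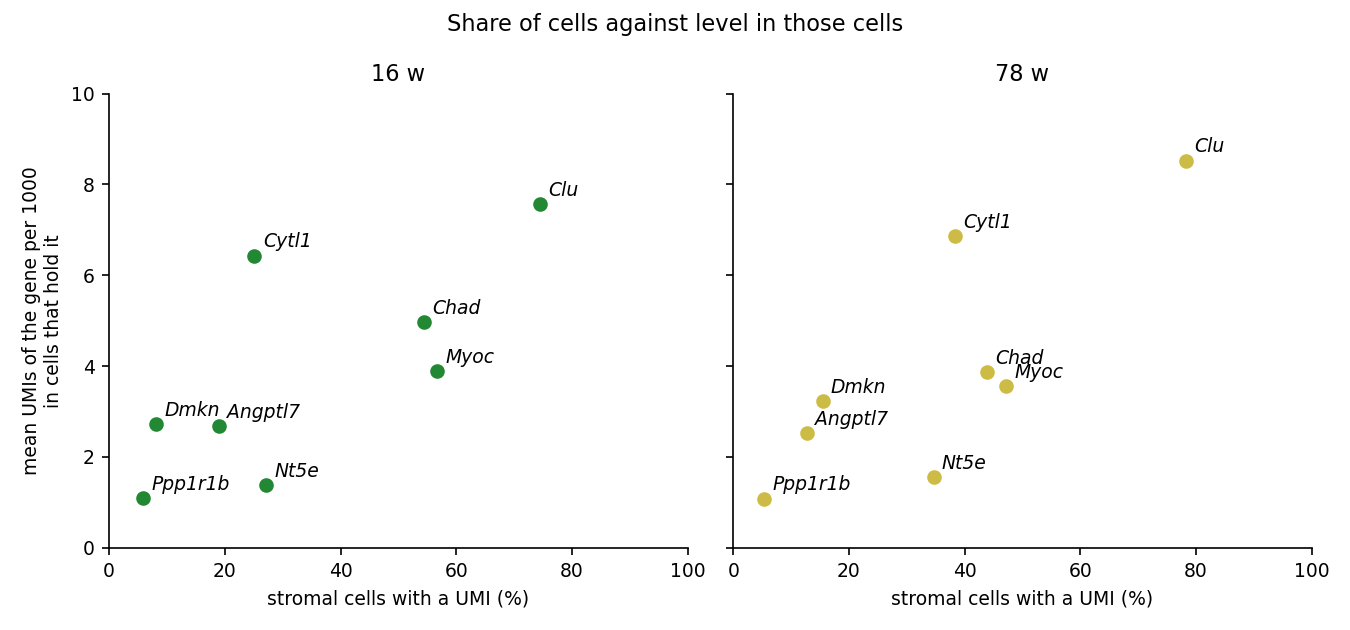
Percent of stromal cells with a UMI of each gene (x axis) against the mean UMIs of that gene per 1000 in the cells that hold it (y axis), after thinning to 1000 UMIs, for the 16 w (left) and 78 w (right) libraries. Cytl1 lies above Nt5e at a like share of cells, at 6.43 UMIs against 1.38 for Nt5e at 16 w.

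Cells with Chad were richer in the members at every stage after 3 d. Of the thinned stromal cells, 44.1% held Chad at 3 w, 54.3% at 16 w, 43.9% at 78 w and 43.1% in the injured library, and 1.12% at 3 d. A member was counted as detected more often in Chad cells where the Clopper-Pearson intervals of its share in cells with and without Chad did not overlap. These intervals treat cells as separate draws and cover counting error only. By this count 7 of 7 members were detected more often in Chad cells at 3 w, at 16 w, at 78 w and in the injured library. The share of all tested genes was 3.55% at 3 w, 5.12% at 16 w, 4.54% at 78 w and 3.26% in the injured library. Tested genes were those seen in at least 20 cells, whereas each member was seen in 107 cells or more of these libraries. A background of genes seen as often as the members was not computed.

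By the ratio of shares, Cytl1 and Ppp1r1b differed most between cells with and without Chad at 16 w. Cytl1 was found in 37.6% of Chad cells (36.1 to 39.1) and 10.3% of the others (9.27 to 11.3), a ratio of 3.66. Ppp1r1b was found in 9.10% of Chad cells (8.24 to 10.0) and 2.03% of the others (1.59 to 2.56), a ratio of 4.47. For the remaining 5 genes the ratio at 16 w was 1.47 to 1.66. A gene found in many cells without Chad cannot reach a high ratio, as for Clu (87.8% against 58.5%). The order of the genes therefore holds for this measure only. The ratio for Ppp1r1b was 4.60 at 3 w, 2.71 at 78 w and 4.81 in the injured library, and for Cytl1 1.89, 2.22 and 2.67. Without thinning, Cytl1 was found in 57.2% of Chad cells and 29.5% of the others at 16 w, and Ppp1r1b was found 5.29 times as often in Chad cells.

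**Figure D4:**
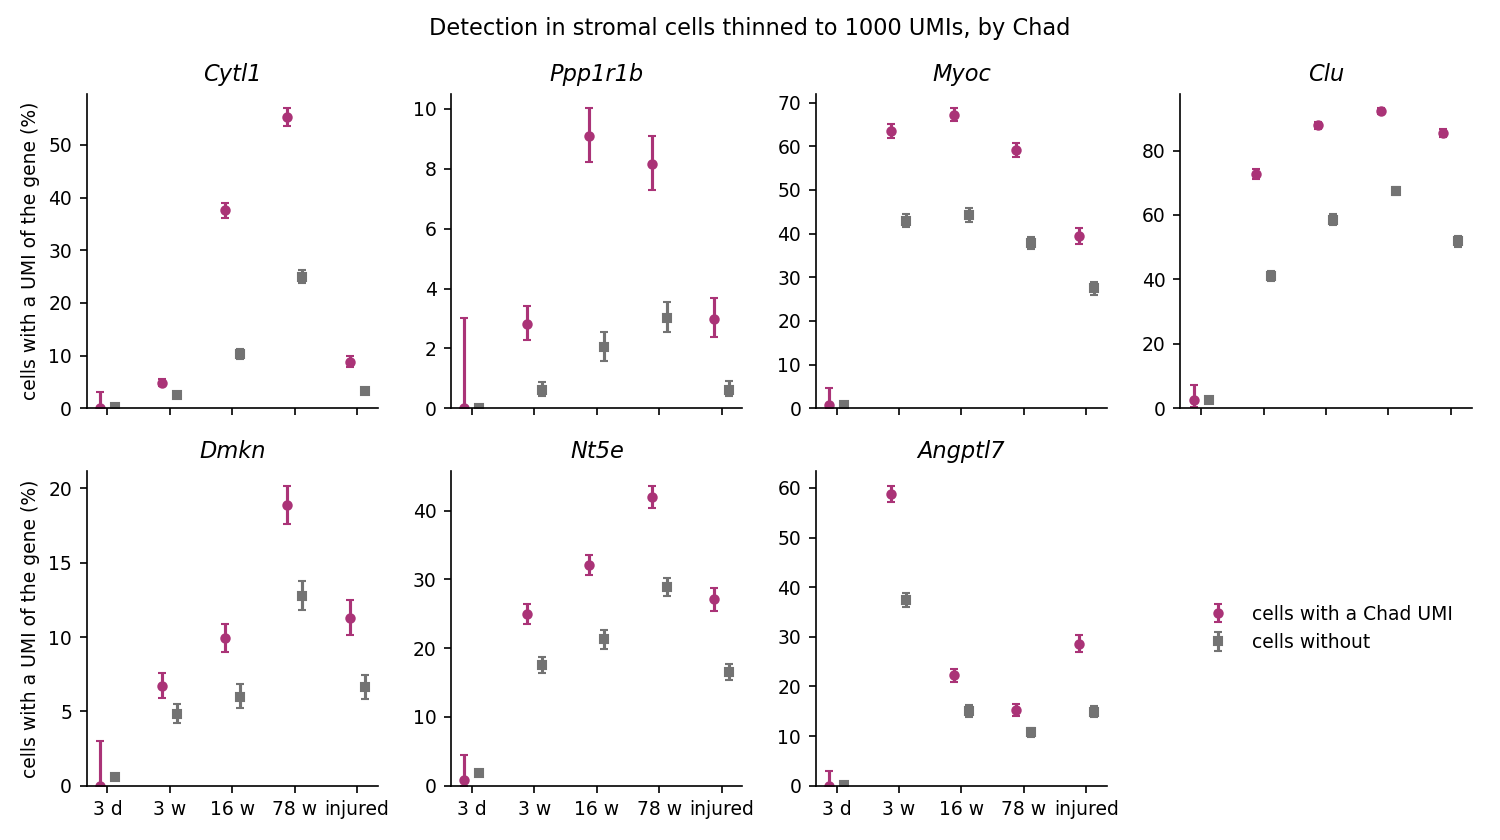
Percent of stromal cells with a UMI of each gene among cells with (circles) and without (squares) a Chad UMI, in each library, after thinning to 1000 UMIs, with exact 95% Clopper-Pearson intervals. In the 4 libraries after 3 d the circles lie above the squares for all 7 genes, for example 37.6% against 10.3% for Cytl1 and 87.8% against 58.5% for Clu at 16 w.

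Newborn Chad cells were few. At 3 d 121 of 10816 cells held Chad after thinning, and 0 of 7 members were detected more often in them, against 0.959% of all tested genes (5 of the 7 were seen in the 20 cells needed for that test). No Cytl1 UMI was seen in those 121 cells (upper Clopper-Pearson bound 3.00%), and 0.290% of the other cells had one, so that a difference was not detectable at this depth. Without thinning 2 members were detected more often in Chad cells at 3 d, Nt5e in 21.0% against 11.6% of the others and Clu in 19.0% against 14.8%, and 1 less often, Dmkn in 0.824% against 2.19%. The share of all genes was not computed for that setting.

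The shares also differed by Chad inside a single cluster. In cluster 1 the intervals lay apart, with the higher share in Chad cells, for every member at 16 w, at 78 w and in the injured library. Within cluster 1 alone, Cytl1 was found in 29.5% of Chad cells and 7.01% of the others at 16 w, and Ppp1r1b in 8.37% and 1.74%. At 78 w the values in cluster 1 were 47.2% and 20.5% for Cytl1 and 6.55% and 2.11% for Ppp1r1b. In the injured library Cytl1 was in 7.52% and 1.65%. At 3 w the intervals within cluster 1 overlapped for Cytl1 (2.93% and 1.61%) and Dmkn (4.13% and 2.46%). They lay apart for the other members, as for Ppp1r1b (2.78% and 0.538%). Shares over all genes were not computed within the cluster. Over the whole 16 w stroma, median UMIs before thinning were 11108 in cells with Chad and without Sfrp2 and 8095 in cells with neither. Chad cells of the stroma were thus also the deeper ones, and these medians are not those of cluster 1.

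Sfrp2, a secreted Wnt modulator, was highest in newborn stroma. It was at 1652 CPM at 3 d and at 26.7, 11.8, 17.3 and 137 CPM in the later libraries in order. At 16 w, Cytl1 was at 3315 CPM in the 4143 cells with Chad and no Sfrp2, at 30.1 CPM in the 77 cells with Sfrp2 and no Chad, and at 375 CPM in cells with neither. Ppp1r1b was at 106, 5.02 (3 UMIs, interval 1.04 to 14.7) and 27.7 CPM in the same classes, and Clu at 8151, 484 and 3604 CPM. Myoc was at 3153, 1310 and 1303 CPM. Angptl7 differed least and was not lower in the Sfrp2 cells, at 614, 710 and 435 CPM. At 78 w Angptl7 was at 346, 795 and 296 CPM in the same classes, and Myoc at 2278, 1547 and 1163 CPM. Cytl1, Ppp1r1b, Clu, Dmkn and Nt5e were lowest of the 3 classes in the 86 cells with Sfrp2 and no Chad there. At 3 d, thinned cells with Sfrp2 held Clu more often than the others (3.66% against 1.46%) and Nt5e less often (1.33% against 2.25%).

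The members were also detected together, though not all pairs were. Cells with 3 or more of the 7 made up 0% of thinned stromal cells at 3 d, where 94.0% held none. Cells with 4 or more were 7.42% at 3 w, 14.2% at 16 w, 18.4% at 78 w and 4.81% in the injured library. Of the 21 pairs, 11 were detected together more often (intervals apart) at 3 w, 11 at 16 w, 12 at 78 w and 14 in the injured library. Less often together were 1 pair at 16 w (Myoc with Clu) and 4 at 78 w (Myoc with Clu, Dmkn and Nt5e, and Ppp1r1b with Angptl7). Pairs of other genes were not counted, so these numbers have no background. Cytl1 cells at 16 w held Ppp1r1b in 10.7% against 4.26% of other cells, Dmkn in 13.1% against 6.46% and Clu in 92.8% against 68.3%. Angptl7 was not linked to Cytl1 at 16 w, with 19.3% and 18.8%. At 78 w, cells with Myoc held Dmkn less often (12.8% against 17.8%) and Angptl7 more often (15.3% against 10.4%).

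The genes most like each member were sought over 39 sums of UMIs, 1 for each cluster and library with at least 100 cells, by Pearson's r of log2(CPM + 5) among 10935 genes. These points share libraries, and 15 of them are stromal, so r is given as a description. Nearest to Cytl1 were Tnfrsf11b (0.90), Cyr61 (0.89), Ppp1r1b (0.88), Ctgf (0.86) and Cbx7 (0.83). Ctgf, a secreted matricellular protein, was at 82.9, 2659, 6101 and 5506 CPM over the normal stages and at 1063 CPM in the injured library. Cyr61, of the same family, was at 123, 217, 1340 and 1027 CPM and at 312 CPM after injury, like Cytl1 with its wide step between 3 w and 16 w.

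Nearest to Ppp1r1b were Clec3a (0.93), Camk4 (0.89), Lag3 (0.89), Kcnq5 (0.89) and Dgki (0.88), genes of low level with 8.85 to 52.1 CPM at 78 w. Nearest to Myoc were the matrix genes Comp (0.97) and Cilp (0.96) with Gsn (0.94), to Clu Chad (0.97), Cilp (0.95) and Comp (0.95), and to Nt5e Fmod (0.97), Chad (0.94) and Clu (0.93). Dmkn was nearest to Ctgf (0.89), Scara3 (0.88) and Anxa8 (0.87), and Angptl7 to Cilp2 (0.94), Myoc (0.91) and Nr1d1 (0.91). Cilp2 was at 2.62, 1322, 271 and 179 CPM over the normal stages, with the same peak at 3 w as Angptl7. Among the members themselves r ran from 0.53 (Cytl1 with Angptl7) to 0.93 (Clu with Nt5e).

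The known partners of each member were read from 7 lists, chosen with earlier results of these data known. Of the 20 cAMP and phosphatase genes around Ppp1r1b, 18 were tested between 16 w and 3 d, and 3 were at least 2-fold higher and 6 at least 2-fold lower, beside 15.8% and 21.3% of all genes, with a median ratio of 0.920, as for all genes. The catalytic subunits of the phosphatase that the Ppp1r1b protein inhibits were present throughout, with Ppp1ca at 233, 125, 75.8 and 89.0 CPM, Ppp1cb at 101, 170, 119 and 105 CPM and Ppp1cc at 109, 158, 93.7 and 89.7 CPM from 3 d to 78 w. Ppp3ca, the catalytic subunit of calcineurin, which dephosphorylates that protein, was at 118, 317, 372 and 456 CPM. The genes of cAMP-dependent protein kinase were present in every library, with its catalytic subunits Prkaca and Prkacb at 20.6 and 53.3 CPM at 16 w and its regulatory subunits Prkar1a and Prkar2a at 130 and 62.5 CPM. The other listed genes above 20 CPM were Ppp3cb (40.0 CPM at 16 w), Ppp2ca (178 CPM), Csnk1e (66.9 CPM), Csnk2a1 (70.7 CPM) and Cdk5 (11.8 CPM at 16 w and 25.7 CPM at 3 d). The dopamine receptor genes Drd1 and Drd2 were at 0.099 CPM or less in every library.

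In the adenosine list of 16 genes, 14 were tested at 3 w against 3 d, with 6 at least 2-fold higher and 4 lower, beside 16.1% and 19.0% of all genes, and a median ratio of 1.42. Pnp, which breaks down inosine, was at 67.9, 440, 304 and 253 CPM over the normal stages, and Adk, which turns adenosine back into AMP, at 62.6, 185, 156 and 159 CPM. Ank, which exports pyrophosphate and ATP, was at 31.0, 145, 136 and 189 CPM and at 238 CPM in the injured library. Enpp1, which makes AMP outside the cell, was at 97.4, 126, 155 and 190 CPM, and the nucleoside transporter Slc29a1 at 72.7, 105, 102 and 146 CPM. The 4 adenosine receptor genes were all at 2.21 CPM or less.

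Of 8 relatives of Angptl7 tested at 16 w against 3 d, none was 2-fold higher and 2 were lower (all genes 15.8% and 21.3%). Angptl1 was at 782, 519, 546 and 555 CPM, Angptl2 at 155, 71.6, 66.8 and 133 CPM, and Angptl4 at 27.8, 92.6, 21.0 and 16.7 CPM with its highest level at 3 w. Among olfactomedin-domain genes around Myoc, 1 of 6 tested was at least 2-fold higher at 16 w than at 3 d and 3 were lower, where 15.8% and 21.3% of all genes were. Olfml3 was at 116, 327, 156 and 167 CPM and Olfml2b at 205, 60.1, 48.7 and 57.9 CPM. Olfm1 was at 38.8 to 64.3 CPM over the 5 libraries, and Olfml1 at 23.5 CPM at 3 d and 5.85 to 16.5 CPM in the others.

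In the complement and chaperone list around Clu, 10 of 14 genes tested were at least 2-fold higher at 16 w than at 3 d (15.8% of all genes), with a median ratio of 4.43. At least 2-fold lower in the injured library than at 16 w were 9 of 14 (13.7% of all genes), with a median of 0.37. Against 3 w, 3 of 13 were at least 2-fold lower and 2 higher, beside 16.4% and 6.14% of all genes, with a median of 0.66. Age and injury cannot be told apart in either contrast. C4b was at 8.76, 64.9, 355 and 681 CPM and at 56.2 CPM after injury, and C3, the central complement protein, at 0.30, 16.7, 84.0 and 206 CPM and at 26.7 CPM after injury. Clu itself was at 0.640 of 16 w in the injured library, above the ratio of both these genes. Apoe, a lipid carrier, was at 44.2, 334, 361 and 205 CPM, and Serping1, which inhibits the first complement proteases, at 76.9, 278, 389 and 396 CPM. Cd55 was at 28.6 to 78.0 CPM over the 5 libraries, Apod at 12.6 to 55.9 CPM, and Cfd at 21.4 CPM at 16 w and 0.11 CPM or less in the other 4.

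Of the 12 epidermal genes listed with Dmkn, 6 were tested at 16 w against 3 d, with 1 at least 2-fold higher (Sbsn) and 2 lower, beside 15.8% and 21.3% of all genes, and a median ratio of 0.73. In the stroma 4 of the 5 epithelial markers (Krt5, Krt14, Krt15 and Cdh1) were at 0.23 CPM or less in every library, and the fifth, Epcam, was at 0.62 to 4.27 CPM. Sbsn, which neighbours Dmkn in the genome, was at 49.6, 899, 471 and 472 CPM and at 845 CPM in the injured library, with its highest level at 3 w where Dmkn was at 179 CPM. Krtdap was at 41.6 CPM at 3 d and at 6.65 to 15.7 CPM in the other 4 libraries, and Krt10 at 12.7 to 28.3 CPM over all 5.

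In the cartilage list around Cytl1, 10 of 14 genes tested were at least 2-fold higher at 16 w than at 3 d and 3 lower, beside 15.8% and 21.3% of all genes, with a median ratio of 3.68. Between 3 w and 16 w, over which Cytl1 was 21.4-fold higher, 4 of 14 were higher and 4 lower, beside 5.53% and 5.84% of all genes. Sox9, the chondrocyte regulator, was at 185, 207, 689 and 726 CPM and at 942 CPM in the injured library, and Prg4 (lubricin) at 100, 2822, 7858 and 11918 CPM and at 3535 CPM after injury. Col2a1, the main cartilage collagen, was at 9.64, 24.6, 57.5 and 161 CPM and at 183 CPM in the injured library, where Cytl1 was at 154 CPM. Comp was at 55.3, 5588, 5844 and 8119 CPM, and Cilp at 46.0, 1468, 2498 and 2711 CPM. The proteoglycan gene Acan was at 102, 27.6, 37.5 and 121 CPM and the collagen gene Col11a1 at 146, 297, 72.8 and 73.6 CPM, so that both were lower at 16 w than at 3 d, unlike Cytl1. Sox5 was at 76.6, 328, 279 and 279 CPM, Sox6 at 43.0, 84.4, 118 and 113 CPM, Hapln1 at 48.0, 109, 88.4 and 137 CPM and Ucma at 2.74, 37.4, 6.49 and 11.9 CPM. Ccr2, which has been proposed as a receptor of Cytl1, was at 0.64 CPM in the injured stroma and 0.04 CPM or less elsewhere. Chad, with which the members were compared, was at 11.8, 1588, 3416 and 2111 CPM and at 1592 CPM after injury.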

How the data were processed

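TMJ discs were digested with Pronase and Collagenase P, and each condition gave 1 library of 10x Genomics 3′ chemistry. The authors deposited raw UMI counts per gene and cell barcode. Their headers name Cell Ranger 4.0.0, whereas the submitters' processing notes name 3.1 and the build mm10. Kept barcodes had over 200 UMIs, of which mitochondrial genes took no more than 30%. Cells were integrated and clustered in Seurat 5.3.0 (R 4.3.3) with 2000 variable features, 30 dimensions and a resolution of 0.2, without the 7 genes, Chad and Sfrp2 (1991 features used). Stromal clusters had at least 5 of 8 stromal markers at 2-fold or more over the 25th percentile of other clusters. Class names are rebuilt here. No doublet caller was run.

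Levels are CPM of UMIs summed over a class. A gene was tested for a 2-fold ratio where it had at least 100 UMIs over both libraries. Intervals are exact 95% Poisson, ratio and Clopper-Pearson intervals (scipy 1.17.1) and hold counting error alone. No p-value was computed, for want of replicate libraries. Co-detection used cells thinned to 1000 UMIs, and genes in at least 20 cells. TMM factors came from edgeR 4.0.16. The ratio step was tested on simulated counts for 16 w over 3 d, where intervals held the true 4-fold ratio for 96% of 100 genes. The simulated counts were Poisson, as the intervals assume. The simulation therefore checks the computation alone and says nothing of variation between libraries. The genes, lists, markers and measures were chosen with earlier results of these data known. Named are the 7 genes, Chad and Sfrp2, the 5 (Cytl1, Ppp1r1b) or 3 genes most like each, and list genes at 20 CPM or more or acting directly on a member, except 1 that is not reported here.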

Additional observations from a re-analysis of the deposited data

How the results depend on the processing

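No paired analysis was possible because each condition has 1 library. Over all 441 recomputed counts and single-gene values, 192 moved, and no ratio of 2-fold or more reversed. A single-gene ratio moved where it left its counting interval, which is narrow. The injured over 3 w ratios of Dmkn, Nt5e and Ppp1r1b, close to 1, crossed it with TMM scaling and with equal weight per cluster (1.09 to 1.15). Of the 134 counts, 129 stayed the same, over other cell filters, resolution 0.5, no integration, a marker gate, the lining cluster counted as stroma, equal weight per cell or cluster, TMM scaling and leaving out the 10% of cells with most UMIs. The number of members highest at 16 w or 78 w stayed at 6. The number with onset at 16 w stayed at 5 where Dmkn did not pass 2-fold between 16 w and 78 w. Members 2-fold higher at 78 w than at 16 w numbered 1 in place of 0 with equal weight per cell (1) and with TMM scaling (1), in each case by a small step of Dmkn. Without a minimum of UMIs, the genes at least 2-fold higher numbered 1872 in place of 712 for 16 w over 3 w, and 916 in place of 267 for 78 w over 16 w, since genes of few UMIs then enter. Without thinning, 2 in place of 0 members were detected more often in Chad cells at 3 d. Depth limits what can be said of Ppp1r1b and of every 3 d ratio, and single libraries limit every contrast.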
